A study of Mus musculus with 899 samples.

Results

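MiR-21a was measured in mouse plasma as its 2 mature arms, mmu-miR-21a-5p and mmu-miR-21a-3p, which were taken by name from the 1915 mature miRNA of the count table. Both arms were among the 483 miRNA that passed a filter on low counts. The 402 C3H and 497 C57Bl/6 samples came from 196 mice of both sexes that received either whole thorax lung irradiation (WTLI), a single X-ray exposure of the chest with the rest of the body shielded, or sham treatment. No transgene, knock-out or other agent is named for any group, and all mice were young adults. Plasma was collected from 64 irradiated and 32 sham C3H mice before irradiation, at day 2 or day 5, and monthly to month 4. From 68 irradiated and 32 sham C57Bl/6 mice it was collected on the same plan to month 6, and 4 of the irradiated mice, all G1 females, were sampled from month 1 on only. The sample names hold 2 animal sets per strain (G2 and G4 for C3H, G1 and G3 for C57Bl/6) that the labels do not define. The other mice gave an early sample at either day 2 or day 5, and sampling after month 1 was limited to G1 and G2. The groups held 8 to 68 samples. Per the authors' methods, plasma was separated from white and red blood cells by centrifugation, and whether platelets or some cells stayed in it is not given. The cells that released an miRNA were not measured, so fewer cells of a type and less miRNA released per cell cannot be told apart.

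MiR-21 is one of the most abundant miRNA of mammalian cells. Its 5p arm is the strand that is usually loaded into the silencing complex, where its seed, the short stretch near the 5′ end, pairs with target mRNA such as those of the translation inhibitor Pdcd4 and Smad7, an inhibitor of TGF-β signalling. The 3p arm is the passenger strand, most of which is degraded. In the lung miR-21 is known as a miRNA that TGF-β raises in fibroblasts and that favours scarring. C3H mice develop pneumonitis after chest irradiation, whereas C57Bl/6 mice develop lung fibrosis months later.

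The mature sequences (RefSeq, GRCm38.p6) are shown because the arms differ in their seed and because near-copies of the 5p arm could share its reads. Capitals mark the seed, bases 2 to 8 from the 5′ end.
miR-21a-5p: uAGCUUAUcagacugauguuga
miR-21a-3p: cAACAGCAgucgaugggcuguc
miR-21b: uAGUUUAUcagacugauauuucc
miR-21c: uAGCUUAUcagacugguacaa

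Both arms of miR-21a are cut from 1 hairpin, Mir21a, at chr11:86584067-86584158 on the minus strand. The 5p arm lies at chr11:86584120-86584141 and the 3p arm at chr11:86584082-86584103. The hairpin stands inside exon 12 of the protein-coding gene Vmp1 (chr11:86583865-86683836, minus strand), in the part that GENCODE vM21 marks as UTR. Among 1738 mature miRNA of the RefSeq table, miR-21c (chr8:128278188-128278208, minus strand) was the only other one with the seed of miR-21a-5p, and none had the seed of miR-21a-3p. Counted from the 5′ end of miR-21a-5p, miR-21c differs from it by A16G, G18A, U19C, U20A and G21A. MiR-21b (chr3:29636768-29636790, plus strand) differs by C4U, G18A, G21U and A22C, the first of them inside the seed. MiR-21b, miR-21c and miR-590-5p had 0 reads in every sample. How reads that match several miRNA were assigned is not given in the sources used here.

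A sample held a median of 1475030 reads (206490 to 11814515). The 5p arm had between 5934 and 998721 reads per sample, with a median of 69673, which was a median of 4.86% of a sample's reads and between 0.910% and 17.7%. It was the second most abundant miRNA in 542 samples and never the first, a place held by miR-16-5p in 897 of them. The 3p arm had a median of 10 reads and at most 132. It had 0 reads in 88 samples and under 10 reads in 425, and a count of 0 allows up to 3 reads, so its absence from a sample was not detectable at this depth. Levels are given below as log2 CPM, counts scaled to a common library size by TMM with a prior count of 2, so that a difference of 1 is a 2-fold difference. Within groups the SD between samples was 0.34 for the 5p arm, the 9th lowest of 483 miRNA, and 1.08 for the 3p arm. After group means were removed, samples of the same mouse correlated at 0.0243 in C3H and 0.0810 in C57Bl/6 for the 5p arm (745 and 1217 pairs of samples), given as a description.

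The question of the design is whether circulating miRNA differ between irradiated and sham mice at each time in each strain. MiR-21a-5p was higher in irradiated than in sham mice at day 5. The difference passed the test in C57Bl/6 mice and missed it in C3H mice. At no other time did it pass in either strain, and miR-21a-3p passed at none. The largest irradiated against sham difference of the 5p arm was 1.29-fold. Sham C3H mice at month 1 differed more from their level before treatment, by 1.89-fold.

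Before irradiation the 5p arm gave no call between the mice to be irradiated and the sham mice, and their levels overlapped over nearly the whole range. Most mice to be irradiated were below the sham median, with 16 of 64 above it in C3H and 20 of 64 in C57Bl/6. In C3H the lowest, median and highest levels were 13.89, 14.86 and 15.40 log2 CPM in 64 mice to be irradiated and 13.94, 15.07 and 15.36 in 32 sham mice. In C57Bl/6 they were 14.72, 15.65 and 16.31 against 15.08, 15.78 and 16.38. The fitted log2 differences, irradiated minus sham, were -0.11 ± 0.07 (SE) in C3H and -0.09 ± 0.07 in C57Bl/6, with edgeR adjusted p = 0.871 and 0.973. Of the 483 miRNA, 0% passed an adjusted p of 0.05 before irradiation in either strain in edgeR, with 32 in C3H and 25 in C57Bl/6 at an unadjusted p under 0.05.

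**Figure D1:**
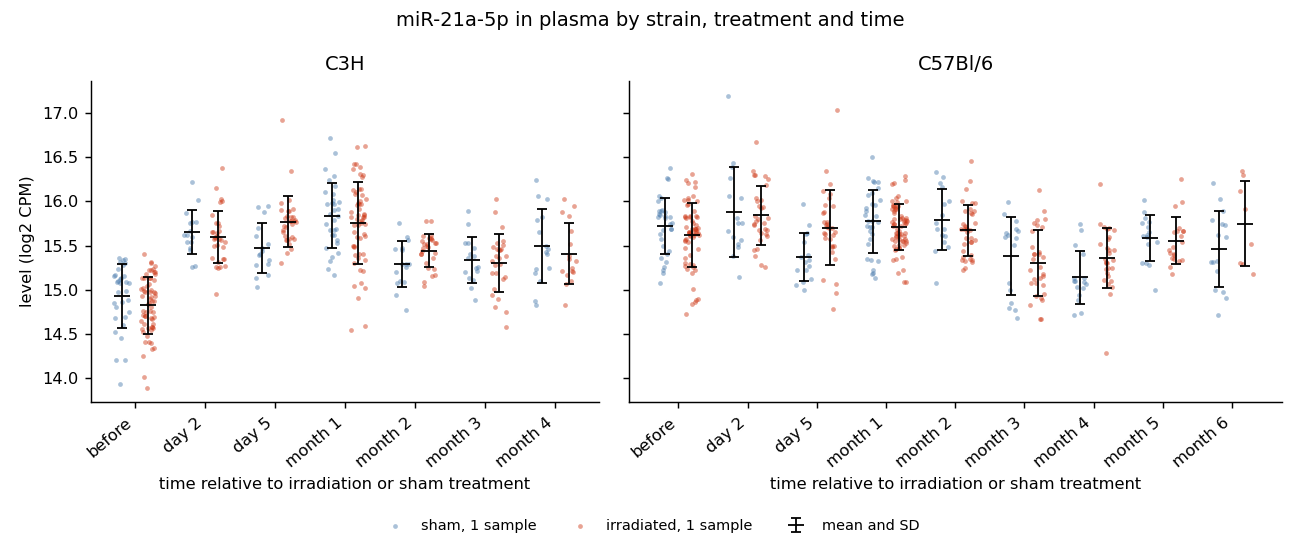
Level of miR-21a-5p in every sample (log2 CPM, vertical axis) by time (horizontal axis) in C3H and C57Bl/6 mice. Each point is 1 plasma sample, blue for sham and red for irradiated mice, and black bars give the mean and SD of a group. Sham and irradiated points overlap at every time, and the group means lie between 14.82 and 15.88.

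At day 2 the 5p arm did not separate the groups in either strain. In C3H the irradiated mice had 14.95, 15.58 and 16.38 log2 CPM (lowest, median, highest, n = 32) and the sham mice 15.25, 15.62 and 16.22 (n = 16). The C57Bl/6 values were 15.26, 15.79 and 16.68 for irradiated and 15.14, 15.76 and 17.20 for sham mice. The fitted log2 differences were -0.04 ± 0.11 and -0.09 ± 0.11 (SE), with 95% intervals of -0.25 to 0.16 and -0.30 to 0.12 (edgeR adjusted p = 0.918 and 0.697). At this time 4.97% of all tested miRNA passed in C3H and 6.63% in C57Bl/6.

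At day 5 the C57Bl/6 levels were 14.78, 15.70 and 17.04 log2 CPM in 32 irradiated mice and 15.00, 15.32 and 15.97 in 16 sham mice. Of the irradiated mice 28 of 32 were above the sham median, 6 were above the highest sham mouse and 2 below the lowest, so the groups overlapped. The means were 15.70 ± 0.43 (SD, n = 32) and 15.37 ± 0.27 (n = 16). The fitted log2 difference was 0.37 ± 0.11 (SE), a 1.29-fold difference, with a log2 95% interval of 0.16 to 0.58 and edgeR adjusted p = 0.00662. This was 1 of 68 calls, 14.1% of the 483 miRNA tested, and miR-21a-5p ranked 42nd by p. Without G3 females the log2 difference was 0.25 (adjusted p = 0.275), within sets G1 and G2 alone 0.14 (adjusted p = 0.606), and after quantile normalization with limma 0.26 (adjusted p = 0.195).

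In C3H mice at day 5 the levels were 15.30, 15.77 and 16.93 log2 CPM in 32 irradiated mice and 15.03, 15.42 and 15.95 in 16 sham mice. Here 30 of 32 irradiated mice were above the sham median and 4 above the highest sham mouse, and none was below the lowest. The means were 15.77 ± 0.29 (SD) and 15.47 ± 0.28. The fitted log2 difference was 0.31 ± 0.11 (SE), 1.24-fold with a log2 95% interval of 0.10 to 0.52, and missed the threshold (p = 0.00432, edgeR adjusted p = 0.104). Of all tested miRNA 3.11% passed in this comparison. After quantile normalization the C3H difference was 0.08. With the mouse as a fixed replicate block, fitted as the change from before irradiation, the log2 difference was 0.47 in both strains. The limma-voom adjusted p was 0.0400 in C3H and 0.0115 in C57Bl/6. Of 19 alternatives in C3H this block was the only 1 to pass. It takes in the level before irradiation, where the irradiated minus sham difference was -0.11 in C3H and -0.09 in C57Bl/6. The mean changes from before irradiation in C3H, 1.06 in irradiated and 0.70 in sham mice, lie closer together than 0.47.

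**Figure D2:**
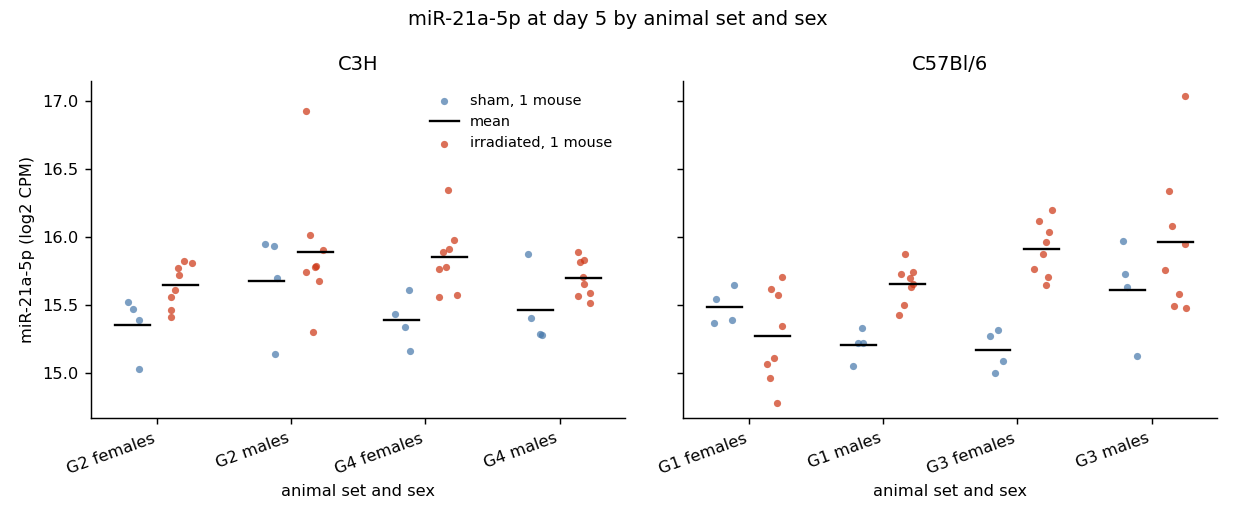
MiR-21a-5p at day 5 (log2 CPM, vertical axis) by animal set and sex (horizontal axis) in C3H and C57Bl/6 mice. Each point is 1 mouse, blue for sham and red for irradiated, and black lines are means. The irradiated mean is above the sham mean in all 4 C3H subgroups and in 3 of 4 C57Bl/6 subgroups, and below it in G1 females.

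The day 5 differences were not equal across the animal sets and sexes. In C3H the irradiated minus sham difference of mean log2 CPM was 0.29 in G2 females, 0.21 in G2 males, 0.47 in G4 females and 0.24 in G4 males. In C57Bl/6 it was -0.21 in G1 females, 0.45 in G1 males, 0.75 in G3 females and 0.35 in G3 males. Each subgroup held 8 irradiated and 4 sham mice. All 8 irradiated G3 females, with 15.65 to 16.20 log2 CPM, were above all 4 sham G3 females, with 15.00 to 15.32, and all 8 irradiated G1 males (15.42 to 15.88) were above the 4 sham G1 males (15.05 to 15.33). The G1 females overlapped, with 14.78 to 15.70 in irradiated and 15.37 to 15.65 in sham mice.

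Set against each mouse's own sample before irradiation, the 5p arm was higher at day 5 in 32 of 32 irradiated and 15 of 16 sham C3H mice, with median log2 changes of 1.04 and 0.46. In C57Bl/6 it was higher in 21 of 32 irradiated and 3 of 16 sham mice, with median changes of 0.08 and -0.21. The mean changes of irradiated and sham mice were 1.06 and 0.70 in C3H and 0.19 and -0.28 in C57Bl/6. In C3H the levels of both groups were thus above those before irradiation, and in C57Bl/6 most sham mice were below theirs. The mean before irradiation was lower in mice to be irradiated than in sham mice in both strains, and these changes include that gap.

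From month 1 on, the 5p arm passed the test at no time. The log2 differences in C3H were -0.06 at month 1, 0.15 and -0.02 in the following pair of months and -0.10 at month 4, with edgeR adjusted p between 0.731 and 0.962. The shares of miRNA called at these times were 3.31%, 0.621%, 2.07% and 0.414%. In C57Bl/6 the differences were -0.09 at month 1, -0.13 at month 2, -0.09 and 0.22 in the following pair of months, -0.03 at month 5 and 0.29 at month 6. The called shares were 3.73%, 3.31%, 1.66%, 4.76%, 3.52% and 0.414%.

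The month 4 and month 6 values in C57Bl/6 mice had unadjusted p under 0.05. At month 4 the levels were 14.29, 15.34 and 16.20 log2 CPM in 29 irradiated mice and 14.72, 15.09 and 15.74 in 16 sham mice, a 1.17-fold difference (log2 95% interval 0.01 to 0.44, edgeR adjusted p = 0.246). At month 6 the 8 irradiated mice sampled had 15.17, 15.72 and 16.35 against 14.71, 15.46 and 16.21 in 16 sham mice, a 1.23-fold difference (log2 interval 0.00 to 0.59, edgeR adjusted p = 0.527). The groups overlapped at both times.

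**Figure D3:**
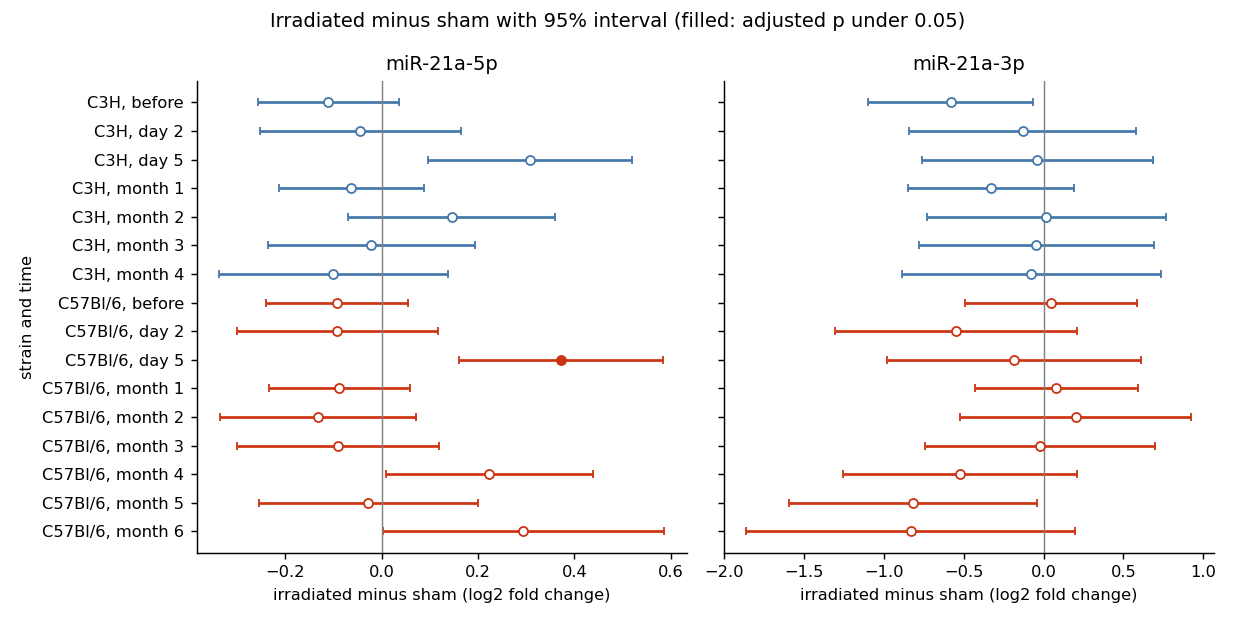
Irradiated minus sham difference (log2 fold change, horizontal axis) with its 95% interval for miR-21a-5p (left) and miR-21a-3p (right) in each strain and time (vertical axis), blue for C3H and red for C57Bl/6. Filled points have an adjusted p under 0.05, which holds for the 5p arm in C57Bl/6 mice at day 5 (0.37) and for no other point.

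MiR-21a-3p, the passenger strand, gave 0 of 16 calls between irradiated and sham mice in edgeR, limma-voom and DESeq2. An unadjusted p under 0.05 occurred in 2 of the 16, and the log2 differences lay between -0.83 and 0.20. At day 5 the differences were -0.04 ± 0.37 (SE) in C3H and -0.19 ± 0.41 in C57Bl/6, with 95% intervals of -0.76 to 0.69 and -0.98 to 0.61, and the sign of both depended on the test and on the samples used. The 3p arm had 0 reads in 10 of 32 irradiated and 8 of 16 sham C57Bl/6 mice at day 5. A change of the size seen for the 5p arm lay inside these intervals and was not detectable at this depth.

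**Figure D4:**
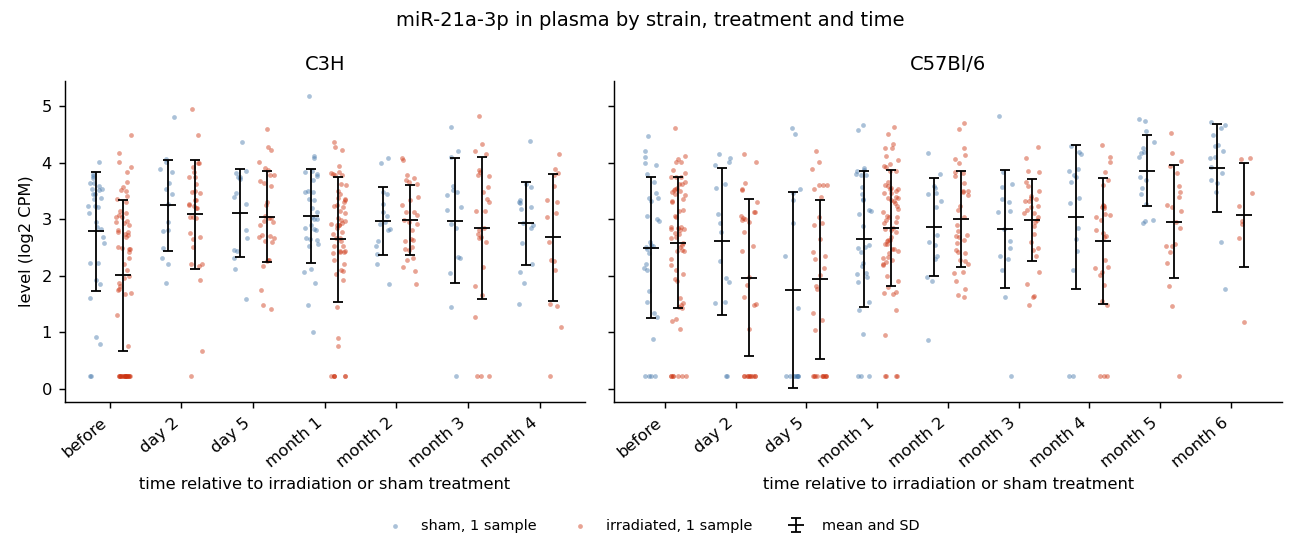
Level of miR-21a-3p in every sample (log2 CPM, vertical axis) by time (horizontal axis) in C3H and C57Bl/6 mice, with blue points for sham and red points for irradiated samples and black bars for the mean and SD. The row of points at 0.23 log2 CPM is the samples with 0 reads, and the sham C57Bl/6 means at month 5 (3.86) and month 6 (3.90) are the highest.

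The 2 comparisons of the 3p arm with an unadjusted p under 0.05 were C3H before irradiation and C57Bl/6 at month 5. Before irradiation the C3H levels were 0.23, 2.37 and 4.49 log2 CPM in mice to be irradiated and 0.23, 3.23 and 4.02 in sham mice, with 0 reads in 19 of 64 and 2 of 32. The log2 difference was -0.58 ± 0.26 (SE, edgeR adjusted p = 0.695) before any irradiation. Total reads had medians of 1387620 in the former and 1863570 in the latter, and the part of depth in this difference was not tested. At month 5 the C57Bl/6 levels were 0.23, 3.15 and 4.53 in 21 irradiated mice and 2.94, 3.93 and 4.77 in 16 sham mice, a log2 difference of -0.82 ± 0.40 (edgeR adjusted p = 0.286). The month 6 difference was -0.83 ± 0.53 (edgeR adjusted p = 0.632), and 0 of 8 irradiated mice were above the sham median of 4.09.

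The log2 ratio of 5p to 3p reads, with 0.5 added to both counts, shows how far the arms moved apart within a sample. Its group means lay between 11.68 and 14.13, so that the 5p arm made up nearly all miR-21a reads. None of 16 comparisons of irradiated with sham mice passed after Benjamini-Hochberg adjustment. The smallest p-values came from C57Bl/6 month 5, where the mean was 12.83 ± 1.34 (SD, n = 21) in irradiated and 11.82 ± 0.66 (n = 16) in sham mice (permutation p = 0.00420, adjusted p = 0.0558), and from C3H before irradiation (13.27 ± 1.64 against 12.39 ± 1.06, permutation p = 0.00697, adjusted p = 0.0558). At month 6 in C57Bl/6 it was 12.90 ± 1.28 (n = 8) against 11.68 ± 1.03 (n = 16, exact permutation p = 0.0172, adjusted p = 0.0916). All these tests were two-sided. Samples with at least 10 3p reads gave a month 6 difference of 1.17 in 7 irradiated and 14 sham mice, which passed (exact permutation, adjusted p = 0.0234). The month 5 difference was then 0.27 in place of 1.00, in 12 irradiated and 16 sham mice. In C3H before irradiation it was -0.0918 in place of 0.88, with 18 mice in each group. This setting selects samples by the 3p count, a part of the ratio, so it cannot show whether the ratio differed over all mice.

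The strains differed in the 5p arm before irradiation. MiR-21a-5p was higher in C57Bl/6 than in C3H plasma by 0.80 ± 0.05 on the log2 scale (SE), 1.74-fold (edgeR adjusted p = 1.40e-42), while the 3p arm differed by 0.13 ± 0.19 (adjusted p = 0.603). In this comparison 50.7% of miRNA passed. Later differences varied in size and sign. Between sham mice, C57Bl/6 minus C3H in the 5p arm was 0.30 at day 2, -0.10 at day 5, -0.07 at month 1, 0.52 at month 2 (edgeR adjusted p = 0.000699), 0.08 at month 3 and -0.38 at month 4 (adjusted p = 0.0111), and the 4 times with no p given did not pass. The animal sets also differed within a strain. Mean levels by treatment and sex before irradiation were 14.60 to 14.79 log2 CPM in G2 and 14.90 to 15.14 in G4, and 15.38 to 15.59 in G1 and 15.75 to 16.09 in G3. Each set held mice of 1 strain, so strain and set cannot be told apart.

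Whether the irradiation effect itself differed between strains was examined by an F test that took in all 6 times after irradiation sampled in both. Neither arm passed (edgeR adjusted p = 0.695 for 5p and 0.980 for 3p), with 4.35% of miRNA called. At day 5 the effect in C57Bl/6 exceeded that in C3H by 0.06 ± 0.15 on the log2 scale (SE), so the call in 1 strain is not shown to be a strain difference. The difference of the effects was -0.28 ± 0.15 at month 2 and 0.32 ± 0.16 at month 4, the furthest from 0, with edgeR adjusted p = 1.00 and 0.465.

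Females and males were compared before irradiation in each strain. For the 5p arm, female minus male was 0.05 ± 0.07 in C3H and -0.05 ± 0.07 in C57Bl/6 on the log2 scale (SE), and for the 3p arm 0.23 ± 0.26 and -0.71 ± 0.27, none of which passed in edgeR (adjusted p = 0.672, 0.668, 0.626 and 0.0584), while 14.5% and 14.7% of miRNA did. The irradiation effect on the 5p arm did not pass the test of a sex difference over day 2, day 5 and month 1, with edgeR adjusted p = 1.00 in C3H, where 0.414% of miRNA passed, and 0.0759 in C57Bl/6, where 5.38% did. In C57Bl/6 the effect at day 2 was 0.24 ± 0.14 in females and -0.34 ± 0.14 in males, and at day 5 it was 0.31 ± 0.14 and 0.43 ± 0.14.

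Sham mice show how miR-21a moved without irradiation. In C3H sham mice the 5p arm was higher at every later time than before sham treatment, by 0.70 at day 2, 0.53 at day 5, 0.92 at month 1, 0.34 and 0.39 in the following pair of months and 0.58 by month 4 on the log2 scale. The F test over these times gave edgeR adjusted p = 1.93e-20, and 46% of miRNA passed it. Each single time passed as well, with adjusted p of at most 0.0114. Measured in the same mouse, 16 of 16 sham C3H mice were higher at day 2 than before, 15 of 16 at day 5, 32 of 32 at month 1, 13 and 14 of 16 in the following pair of months and 16 of 16 by month 4. The C3H samples after month 1 came from G2 alone, the set with the lower level before treatment.

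In C57Bl/6 sham mice the times that passed were all lower than before sham treatment. The 5p arm was lower at day 5, with a log2 difference of -0.36 ± 0.11 (SE, edgeR adjusted p = 0.00474), and again in months 3 and 4, with -0.32 ± 0.11 (adjusted p = 0.0140) and -0.58 ± 0.11 (adjusted p = 1.63e-06). The other times did not pass, with 0.22 at day 2, 0.06 at month 1, 0.08 at month 2 and then -0.15 in month 5 and -0.24 in month 6. The F test gave adjusted p = 2.54e-11, with 62.9% of miRNA called. Samples after month 1 came from G1 alone, the set with the lower level before treatment, so these later values compare partly different mice. Within the same mouse 3 of 16 sham mice were above their own earlier level at month 4 (median change -0.45), 7 of 16 at month 3 (median -0.15) and 12 of 16 at month 2 (median 0.37).

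The 3p arm in sham mice gave F test adjusted p = 0.962 in C3H and 0.00199 in C57Bl/6. In C57Bl/6 it was higher at month 5 by 1.17 ± 0.36 and at month 6 by 1.26 ± 0.36 (edgeR adjusted p = 0.00730 and 0.00271), when 13 and 14 of 16 sham mice were above their own level from before treatment. At these times the 5p arm differed from its earlier level by -0.15 and -0.24 and did not pass.

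Other miRNA with a known role in fibrosis or inflammation, listed from general knowledge, were read at day 5 beside miR-21a-5p. Here and below, rose and fell mean higher and lower in irradiated than in sham mice. At day 5, 15 of all 483 miRNA were called in C3H (3.11%, 8 up and 7 down) and 68 in C57Bl/6 (14.1%, 30 up and 38 down). Of 12 fibrosis-promoting miRNA, miR-21a-5p included, 1 rose and 1 fell in C3H and 3 rose and 2 fell in C57Bl/6. The median log2 difference of the list was 0.07 and 0.16, against 0.00 and -0.00 over all 483 miRNA. MiR-34a-5p, which p53 induces after DNA damage, rose 3.49-fold in C3H (edgeR adjusted p = 1.82e-13) and 3.26-fold in C57Bl/6 (adjusted p = 1.59e-11). MiR-155-5p, a miRNA of activated leukocytes, fell to 0.577 and 0.377 of the sham level (adjusted p = 0.00357 and 4.19e-11). MiR-192-5p, a miRNA of liver and gut epithelium, rose 1.68-fold in C57Bl/6 (adjusted p = 0.000983). MiR-199a-5p fell there to 0.521 of the sham level (edgeR adjusted p = 0.00429). The 1.29-fold difference of miR-21a-5p was the smallest of the 3 rises in that list. Against their own earlier level, irradiated C57Bl/6 mice had a median log2 change of 0.08 and sham mice of -0.21.

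Of 16 fibrosis-restraining miRNA, 0 rose and 1 fell in C3H and 6 rose and 3 fell in C57Bl/6, with medians of 0.15 in both strains, beside 3.11% and 14.1% of all miRNA. MiR-29c-3p and miR-29a-3p, which target collagen mRNA, rose 1.98-fold (edgeR adjusted p = 6.53e-08) and 1.51-fold (adjusted p = 1.92e-05) in C57Bl/6, and miR-30a-5p rose 1.45-fold (adjusted p = 4.97e-06). MiR-141-3p rose 2.02-fold (edgeR adjusted p = 0.000644), miR-101a-3p 1.41-fold (adjusted p = 0.00170) and miR-200a-3p 1.55-fold (adjusted p = 0.00412). The remaining miR-29 miRNA of the list, miR-29b-3p, fell to 0.561 of the sham level (edgeR adjusted p = 0.0234), as did miR-98-5p to 0.469 (adjusted p = 0.00122) and miR-200c-3p to 0.505 (adjusted p = 0.0234). Of 11 inflammation miRNA, a list that shares miR-21a-5p and miR-155-5p with the first, 0 rose and 2 fell in C3H and 1 rose and 3 fell in C57Bl/6. MiR-21a-5p was the 1 that rose. Those that fell in C57Bl/6 were miR-155-5p, miR-142a-3p (to 0.344, adjusted p = 7.92e-08), a miRNA of blood cells, and miR-223-3p (to 0.460, adjusted p = 1.37e-08), a miRNA of neutrophils.

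**Figure D5:**
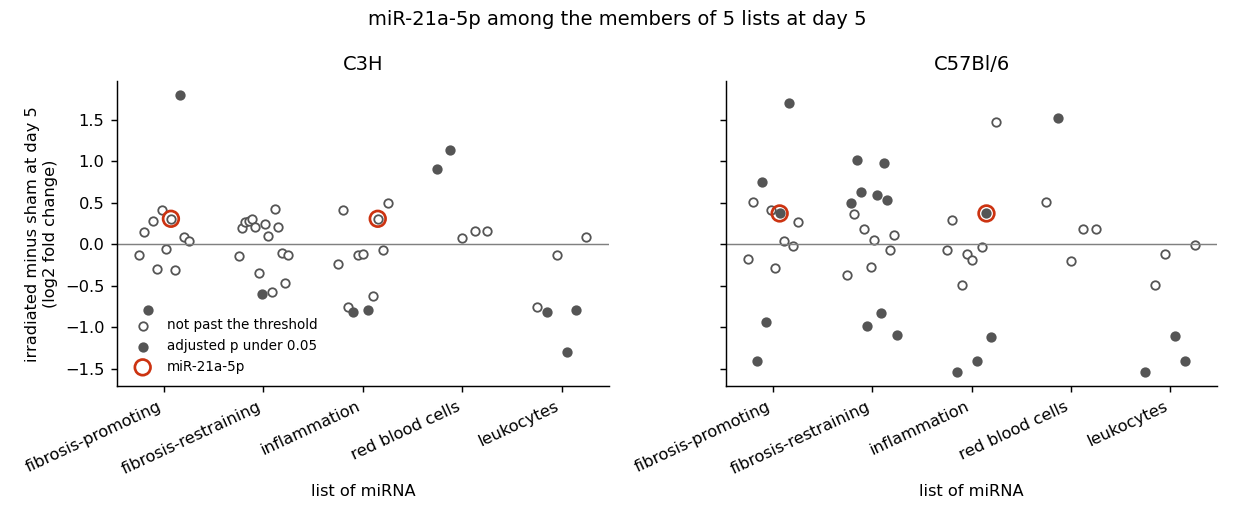
Irradiated minus sham difference at day 5 (log2 fold change, vertical axis) of each member of 5 miRNA lists (horizontal axis) in C3H and C57Bl/6 mice. Each point is 1 miRNA, filled where the adjusted p is under 0.05, and a red ring marks miR-21a-5p, at 0.31 in C3H and 0.37 in C57Bl/6, below miR-34a-5p at 1.80 and 1.70.

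Some markers of blood cells also differed at day 5. In the leukocyte list 0 of 6 rose and 3 of 6 fell in either strain, where 7 of 483 miRNA fell in C3H and 38 in C57Bl/6, and miR-150-5p, a lymphocyte miRNA, fell to 0.408 of the sham level in C3H and 0.467 in C57Bl/6 (edgeR adjusted p = 1.48e-15 and 3.07e-11). At day 2, when miR-21a-5p gave no call (-0.04 and -0.09), 5 of 6 leukocyte miRNA fell in C3H and 2 of 6 in C57Bl/6. Of all 483 miRNA, 16 fell at day 2 in C3H and 21 in C57Bl/6. MiR-150-5p fell to 0.307 and 0.342 of the sham level at day 2 (edgeR adjusted p = 4.56e-27 and 9.72e-23). The summed level of the list at day 5 was 9181 to 19052 CPM in irradiated and 14670 to 31018 CPM in sham C3H mice, and 10855 to 33888 against 11948 to 34116 in C57Bl/6. In the list of 5 red blood cell miRNA, 2 rose in C3H and 1 in C57Bl/6 and 0 fell, where 8 and 30 of 483 miRNA rose. MiR-451a, the most abundant miRNA of red blood cells, differed by 0.08 and -0.20 on the log2 scale (adjusted p = 0.963 and 0.650), and miR-144-3p by 0.90 and 0.51 (adjusted p = 0.0190 and 0.164). The red cell miRNA called in C57Bl/6 was miR-144-5p, which passed in both strains. Its log2 differences were 1.14 in C3H and 1.52 in C57Bl/6 (edgeR adjusted p = 0.00411 and 7.66e-06). Summed, the red cell list gave 44002 to 235122 CPM in irradiated and 51122 to 215230 CPM in sham C3H mice, and 24278 to 124005 against 11522 to 127420 in C57Bl/6. These sums hold both miR-486a-5p and miR-486b-5p, whose irradiated C3H means nearly matched (15.1845 and 15.1834 log2 CPM). The 2 rises in C3H were both arms of miR-144, so the 5 red cell miRNA are not independent. At day 5 miR-451a, miR-144-3p, miR-150-5p and miR-223-3p had reads in every sample. The myeloid pair had 1 fall in C57Bl/6 (miR-223-3p), of 4 liver miRNA 1 rose and 2 fell in C57Bl/6, of the 2 endothelial and platelet miRNA 1 rose in C57Bl/6, and the muscle list had 0 calls, with no call of these 4 lists in C3H, against 3.11% of all miRNA there and 14.1% in C57Bl/6. The part of these cells in the miR-21a-5p difference was not tested.

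Across all samples, after group means were removed, the 5p arm had a Pearson correlation of -0.0307 with miR-451a, 0.0674 with miR-144-3p, 0.0192 with miR-150-5p, -0.212 with miR-223-3p and 0.0312 with log2 total reads. Of the further markers read, miR-126a-3p of endothelium and platelets gave -0.268, the furthest from 0, and miR-122-5p of liver gave 0.0526. These correlations are descriptions over samples that share their scaling. The miRNA whose level was most like that of the 5p arm within groups were miR-34a-5p (r = 0.486), miR-146a-5p (0.434), miR-29a-3p (0.400), miR-501-3p (0.395) and miR-22-3p (0.394), against a median of 0.0484 over all miRNA. Over the 32 group means they were miR-376c-3p (0.730), miR-1839-5p (0.712), miR-501-3p (0.707), miR-148a-5p (0.677) and miR-378a-3p (0.674). MiR-501-3p was in both lists.

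The passenger strand had other neighbours. Within groups miR-21a-3p was most like miR-130a-3p (r = 0.420), miR-142a-5p (0.420), miR-322-5p (0.419), let-7d-5p (0.411) and miR-26a-5p (0.398). Over the group means it was most like miR-181c-3p (0.797), miR-467e-5p (0.772), miR-32-5p (0.772), miR-31-5p (0.761) and miR-872-3p (0.739). The 2 arms of miR-21a correlated with each other at 0.277 within groups and 0.0583 over group means, and the few reads of the 3p arm bound how high this can be.

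Irradiated mice of G1 and G2 that were still sampled at the last time, month 4 in C3H and month 6 in C57Bl/6, were compared at each earlier time with those that were not. Why a mouse was no longer sampled is not in the labels. None of 28 comparisons over both arms passed after Benjamini-Hochberg adjustment. The smallest p was for the 5p arm at day 2 in C3H, where the 10 mice sampled at month 4 had a mean of 15.78 ± 0.31 log2 CPM (SD, 15.48 to 16.38) and the 6 others 15.33 ± 0.25 (14.95 to 15.75), with two-sided exact permutation p = 0.00924 and adjusted p = 0.145. Divided by sex, the same irradiated G2 mice had means of 15.40 in 8 females and 15.82 in 8 males. Sex was not part of this comparison, and its share in the difference was not tested.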

How the data were processed

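Small RNA of EDTA plasma was sequenced by the authors from QIAseq libraries and aligned with a BaseSpace small RNA application to mouse miRNA (mm10, as the submitters' processing notes name it). Per the authors' methods, hemolysed plasma and runs with few reads were left out before deposit. The deposited values are raw counts per mature miRNA and sample. The miRNA database release and the use of molecular identifiers are not given in the sources used here, and intervals cover counting error and the spread between mice only.

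Groups were taken from the labels (strain, treatment, time), and all samples, with 32 group means, were fitted in R 4.3.3 with edgeR 4.0.16 (TMM scaling, filterByExpr, glmQLFit and glmQLFTest, 867 residual degrees of freedom). P-values were adjusted by Benjamini-Hochberg over the 483 miRNA kept, with 0.05 as threshold. The arm ratio and the comparison by later sampling used two-sided permutation tests, exact where a group was under 10 and all splits could be listed, and otherwise with 100000 resamples, which includes several comparisons with a group of 8 or 9. Alternatives were DESeq2 1.42.0, limma 3.58.1 (voom, or the study's own way of log2 RPM with quantile normalization), the mouse as a block, subsets by animal set and sex, covariates and filters. Leaving out each set and sex at day 5 was chosen after seeing the data. The mouse number in the labels marks the same mouse over time, so it pairs times and not irradiated with sham mice, and voom's estimate of the correlation within a mouse was 0.0434.

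MiRNA named in the text are both arms, miRNA that share a seed with them and miR-21b, the 5 most correlated with each arm by either measure, up to 4 with the smallest adjusted p in each list discussed, and 4 markers of blood cells. MiR-590-5p was added outside this rule, after its count was seen. Also outside it, miR-126a-3p, miR-122-5p, miR-486a-5p and miR-486b-5p were added after their values were seen. The members and lists were chosen with earlier results of these data known. Tests were checked on simulated counts first. Sequences and positions come from RefSeq (GRCm38.p6) and gene models from GENCODE vM21.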

Additional observations from a re-analysis of the deposited data

How the results depend on the processing

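Of 449 alternative values computed, 395 kept their direction and their side of the threshold, 6 no longer passed, 4 newly passed, 42 turned in sign and 2 counts moved. No value that passed turned in sign under any alternative run, and the 5p difference at day 5 was positive under all 19 alternatives in each strain. That difference ranged from 0.08 to 0.47 in C3H and from 0.14 to 0.57 in C57Bl/6. Mice per group, a BCV of 0.241 for the 5p arm and, for the 3p arm, a median of 10 reads limit the precision. The 3p arm was not refitted with a minimum of 10 CPM, since its mean was 7.44 CPM. The cause of the changes below was not tested, apart from fewer samples in the subsets.

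The C57Bl/6 day 5 difference of the 5p arm (0.37) missed the threshold with quantile normalization (0.26, limma adjusted p = 0.195), with only the 2 groups fitted (0.37, adjusted p = 0.101), with sets G1 and G2 alone (0.14, adjusted p = 0.606), with females (0.31, adjusted p = 0.115) or males alone (0.43, adjusted p = 0.0968) and without G3 females (0.25, adjusted p = 0.275), all edgeR unless named. Sets G3 and G4 alone gave 0.57 (adjusted p = 0.00442). With a minimum of 100 CPM the C57Bl/6 month 4 difference passed (0.33, adjusted p = 0.0266), as did the test of a sex difference in C57Bl/6 (adjusted p = 0.0389).

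With the mouse as a fixed replicate block, which takes in the level before irradiation, the C3H day 5 difference passed (0.47, limma adjusted p = 0.0400). The same block turned the 5p differences at C3H month 1 (0.0366) and month 3 (0.0499) and at C57Bl/6 day 2 (0.0224), month 1 (0.0198), month 3 (0.0529) and month 5 (0.10), and the 3p differences at day 5 in C3H (1.03) and C57Bl/6 (0.31). With the block as an estimated correlation the day 5 values of the 3p arm were 0.0265 and 0.35, and the C57Bl/6 day 5 difference of the 5p arm was 0.35 (adjusted p = 0.0244). The block changed no other call of the irradiated against sham comparisons.

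The other turned values, none past the threshold, were these for the 5p arm. Quantile normalization gave 0.12 at C3H month 3 and, in C57Bl/6, 0.22 at day 2, 0.0802 at month 1, 0.0451 at month 2, 0.0430 at month 3, 0.10 at month 5 and 0.0898 for female minus male. It gives each rank the same value in every sample, and it moved the median of all miRNA by 0.13 at C57Bl/6 day 2. DESeq2 and its size factors in edgeR both gave 0.0117 at C57Bl/6 month 5, with 0.0397 and 0.0396 for female minus male, which was 0.0288 without a filter. G1 and G2 gave 0.0399 at C3H month 1, and G3 and G4 gave 0.0141 at C3H day 2. Females gave 0.0325 at C3H month 1 and 0.24, 0.0577 and 0.19 at C57Bl/6 day 2, month 1 and month 5. Males gave 0.0455 at C3H day 2 and 0.0213 at month 3, where the 100 CPM minimum gave 0.0033.

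For the 3p arm at day 5, C3H turned with limma-voom (0.0072), G3 and G4 (0.18), females (0.0259), without G2 females (0.0710) and without G2 males (0.0016). C57Bl/6 turned with limma-voom (0.32), quantile normalization (0.25), G1 and G2 (1.20), males (0.0518) and without G3 females (0.18). With at least 10 reads of the 3p arm the arm ratio difference was -0.0918 in C3H before irradiation and 1.17 in C57Bl/6 at month 6, which was 1 call of 16 (adjusted p = 0.0234, exact permutation). That minimum selects samples by a part of the ratio tested. Taken as a change from the mouse's own earlier sample, later sampling gave 1 call of 24, for the 3p arm at C3H month 2 (1.64, adjusted p = 0.0410, permutation). Before irradiation, 17 mice sampled later and 15 others differed by -1.12 (0.80 against 1.92 log2 CPM, permutation p = 0.0103). At month 2 the same 17 and the 11 others still sampled differed by 0.42 (permutation p = 0.0801). The 1.64 is from these 17 and 11 mice, so most of it is the earlier difference.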
